A study of Mus musculus with 7 samples.

Results

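Galanin, cholecystokinin, somatostatin, substance P and neurotensin are neuropeptides, short signalling molecules that neurons cut from larger precursor proteins and release beside their fast transmitters. Their precursor genes Gal, Cck, Sst, Tac1 and Nts were taken by name from the deposited count table, so the set holds 5 of the 55487 genes listed, and all 5 passed the filter on low counts. The tissue was a microdissection of the suprachiasmatic nucleus (SCN), a small part of the hypothalamus that times daily rhythms and is wired directly to retinal ganglion cells. The advanced glaucoma group (3 libraries, scn_glauc_152, scn_glauc_153 and scn_glauc_154) came from DBA/2J mice, an inbred strain with a spontaneous mutation of Gpnmb, raised eye pressure and retinal damage. The control group (4 libraries, scn_cont_565, scn_cont_567, scn_cont_568 and scn_cont_570) came from DBA/2J-Gpnmb+SjJ mice, which share that background and lack the mutation. Both groups were kept in 12 h of light and 12 h of dark, and the labels enter WT as the genotype of both. Where values of single libraries follow, they are in the order of the names given here. Age, sex and time of day at sampling are not given in the sources used here. The question the contrast addresses is how the tissue of the central clock differs between mice with advanced glaucoma and controls. The groups also differ in the Gpnmb mutation, so the disease and the mutation cannot be told apart.

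Each of these peptides acts through its own G protein-coupled receptors, and in rodent brain none of the 5 is made by the SCN alone. Galanin is known from the preoptic area, the arcuate and dorsomedial nuclei and magnocellular neurons. Somatostatin neurons are dense in the periventricular nucleus beside the SCN. Tac1 encodes substance P and neurokinin A and is strongly expressed in the striatum as well as in the hypothalamus. Neurotensin neurons lie in the preoptic and lateral hypothalamic areas, and cholecystokinin is made in much of the forebrain and by some SCN neurons. In the SCN itself, subsets of neurons have been described that contain each of galanin, substance P, somatostatin or neurotensin, beside the larger populations that make vasoactive intestinal peptide (VIP) or vasopressin.

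Sections were 600 μm thick, and neighbouring nuclei can enter such a dissection. In bulk tissue, fewer cells of a type and less RNA per cell cannot be told apart. The libraries held 3585907 to 5118764 counts in advanced glaucoma and 2174456 to 5285093 in control, and a precursor had 36 to 6763 counts in any one library. Gpnmb had 0 to 1 counts in advanced glaucoma libraries and 0 to 2 in control libraries, so it could not check the labels. The shallowest library, scn_cont_565, stood apart from the other 6 on the first principal component (-50.8, against -1.61 to 20.4 in the others, 29.1% of the variance). A list of 12 SCN genes, which includes Vip, summed to 376 to 423 CPM (counts scaled to a common library total, with TMM factors) in advanced glaucoma libraries and to 807 to 1086 CPM in control libraries.

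Sequences before the RefSeq starts of the 5 genes are shown because activity-dependent and clock factors are known to act through short motifs in such stretches. They come from RefSeq (GRCm38.p6, the C57BL/6J reference and not the DBA/2J strain), run 5′ to 3′ on the strand of the gene, and all 5 genes had an entry. Capitals mark a match, on either strand, to the cAMP response element TGACGTCA, the E-box CACGTG or the AP-1 site TGANTCA within 250 bases before the RefSeq start. The cAMP response element is well known from the rat Sst gene, and the 30 bases around the match in mouse Sst span chr16:23890874-23890903 (minus strand).
Sst: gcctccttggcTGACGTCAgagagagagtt
The 30 bases around the E-box of Tac1 span chr6:7554988-7555017 (plus strand).
Tac1: tggggagagtgtCACGTGgctctacaggct
The window of Cck also holds an E-box and spans chr9:121495695-121495944 (minus strand).
Cck: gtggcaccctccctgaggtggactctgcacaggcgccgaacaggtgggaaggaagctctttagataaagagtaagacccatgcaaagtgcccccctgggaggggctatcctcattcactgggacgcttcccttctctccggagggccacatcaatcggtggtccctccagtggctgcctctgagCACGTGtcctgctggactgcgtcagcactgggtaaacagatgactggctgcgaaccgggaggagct
The stretch of Nts, with an AP-1 match, spans chr10:102490487-102490668 (minus strand).
Nts: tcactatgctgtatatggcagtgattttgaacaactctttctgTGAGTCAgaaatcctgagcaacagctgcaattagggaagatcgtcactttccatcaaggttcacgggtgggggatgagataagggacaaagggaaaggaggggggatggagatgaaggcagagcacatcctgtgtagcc
The window of Gal has none of the letters searched and spans chr19:3414545-3414794 (minus strand).
Gal: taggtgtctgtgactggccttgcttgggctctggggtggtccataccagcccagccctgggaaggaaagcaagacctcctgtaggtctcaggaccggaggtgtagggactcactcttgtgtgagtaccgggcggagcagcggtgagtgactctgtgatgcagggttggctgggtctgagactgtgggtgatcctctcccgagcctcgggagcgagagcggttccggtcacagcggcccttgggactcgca
GENCODE begins Sst, Tac1 and Nts further upstream than RefSeq, so that 114, 182 and 68 bases of their windows lie inside the GENCODE gene. The stretches printed for Sst and Tac1 lie inside it, and that of Nts ends where it begins. The matches lie 48 to 41 bases before the start in Sst, 61 to 56 in Tac1, 66 to 61 in Cck and 207 to 201 in Nts. Among all 32851 windows of the same 250 bases, the cAMP response element was present in 1.55%, the E-box in 6.02% and the AP-1 letters in 6.75%. The 3 motifs did not overlap in these windows, and a match is a description and not evidence of binding.

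None of the 5 precursor genes passed the test between advanced glaucoma and control. Across the 14020 genes tested, 66 had an adjusted p below 0.05 in edgeR (quasi-likelihood fit with Benjamini-Hochberg adjustment), a background of 0.471%, so a count of 0 among 5 genes is near that background. At an unadjusted p under 0.05 the count among the 5 was 0 by edgeR, where 8.2% of all genes tested passed, and 2 by DESeq2 (Gal and Nts), where 6.67% passed. In each of the 5 the libraries of the groups overlapped, while 8.02% of all tested genes had groups that did not. The median log2 fold change of the 5 was -0.20, beside -0.01 over all genes tested. What the data give for each gene is therefore a level, a spread between mice and an interval for the difference.

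**Figure D1:**
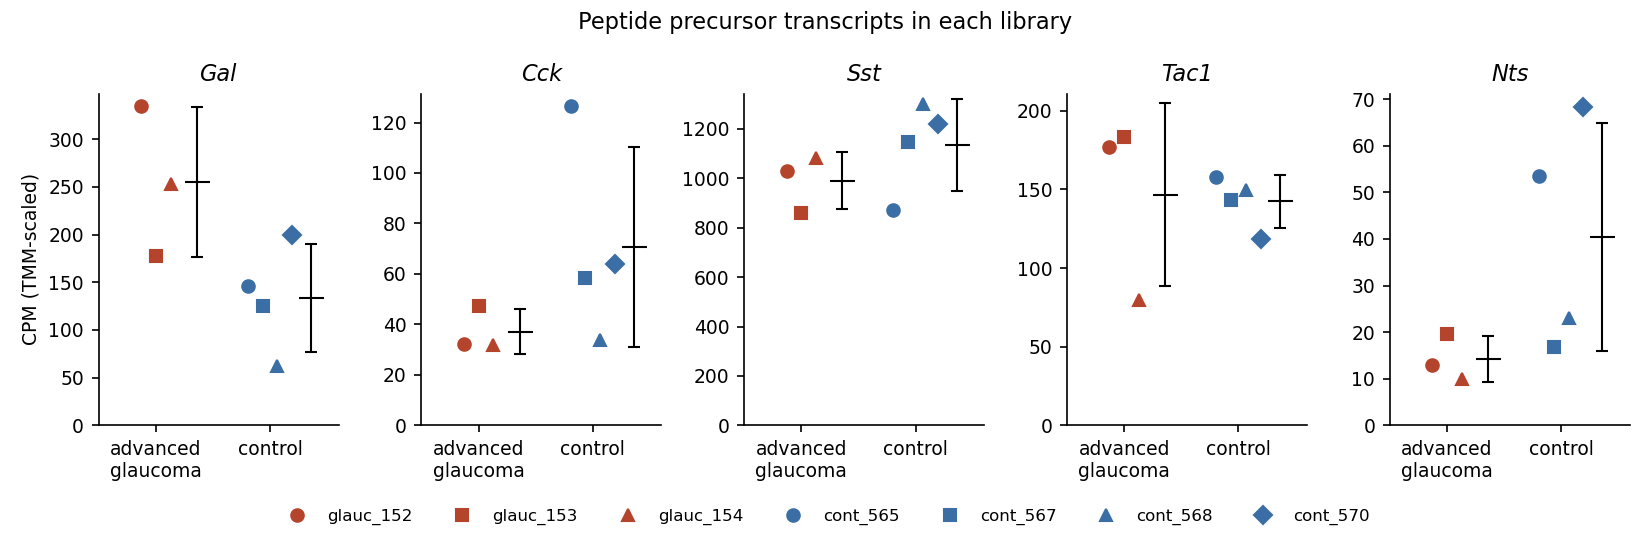
Level of each precursor transcript in CPM (vertical axis, from 0) in the 3 advanced glaucoma libraries (red) and the 4 control libraries (blue), with 1 point per library and the mean with SD in black. Gal lies higher and Cck and Nts lower in most advanced glaucoma libraries, and in every panel the groups overlap.

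Gal encodes galanin, a peptide that mostly inhibits the neurons it reaches. Gal (ENSMUSG00000024907, chromosome 19, 3409915 to 3414544, mm10, minus strand) was at 334, 177 and 253 CPM in the advanced glaucoma libraries, against 146, 125, 62.0 and 199 CPM in the control libraries. A pair of advanced glaucoma libraries exceeded all controls, and scn_glauc_153 fell just below the highest control. Gal averaged 255 ± 78.4 CPM in advanced glaucoma and 133 ± 56.7 CPM in control (SD, n = 3 and n = 4). The log2 fold change was 0.93 (SE 0.439, 95% interval -0.18 to 2.05, edgeR adjusted p = 0.713). The interval therefore runs from a small decrease to a large increase. Without scn_cont_570 the value was 1.22 (edgeR adjusted p = 0.723, unadjusted p = 0.0452 by edgeR). It was the only control within the advanced glaucoma range, so leaving it out removed the overlap by construction. In that fit 6.77% of all genes had an unadjusted p under 0.05 by edgeR. In the libraries of both groups the list of arcuate and tuberal markers, whose region also makes galanin, was summed. It reached 1775, 897 and 1296 CPM in the advanced glaucoma libraries, against 400, 1240, 853 and 219 CPM in the control libraries. The order of these sums was that of Gal in advanced glaucoma. Among the controls, scn_cont_570 had the highest Gal and the lowest sum. The part of that region in the Gal values was not tested.

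Cck encodes cholecystokinin, a peptide of gut and brain that modulates transmission through CCK receptors. Cck (ENSMUSG00000032532, chromosome 9, 121489824 to 121495694, minus strand) was at 32.1, 47.4 and 31.85 CPM in the advanced glaucoma libraries, against 127, 58.5, 33.7 and 63.8 CPM in the control libraries. The advanced glaucoma libraries lay low, and scn_cont_568 lay among them. The means were 37.1 ± 8.90 CPM in advanced glaucoma and 70.6 ± 39.5 CPM in control (SD, n = 3 and n = 4). The log2 fold change of Cck was -0.87 (SE 0.488, 95% interval -2.10 to 0.36; edgeR adjusted p = 0.766). The highest control, scn_cont_565, is the library that stood apart on the first component. Without it the log2 fold change of Cck was -0.48 (edgeR adjusted p = 0.628). Without scn_cont_568 the log2 fold change of Cck was -1.11 (edgeR adjusted p = 0.520, unadjusted p = 0.0195 by edgeR). Library scn_cont_568 was the only control within the advanced glaucoma range, so leaving it out removed the overlap by construction. In that fit 7.32% of all genes had an unadjusted p under 0.05 by edgeR.

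Sst encodes somatostatin, an inhibitory peptide of local neurons that also restrains growth hormone release when it is made in the periventricular nucleus. Sst (ENSMUSG00000004366, chromosome 16, 23889573 to 23890958, minus strand) was at 1029, 860.0 and 1082 CPM in the advanced glaucoma libraries, against 872, 1146, 1302 and 1218 CPM in the control libraries. All advanced glaucoma libraries lay below 3 of the 4 controls, and scn_cont_565 lay between them. Sst averaged 990.1 ± 116 CPM in advanced glaucoma and 1134 ± 186 CPM in control (SD, n = 3 and n = 4). Its interval was the narrowest of the 5, with a log2 fold change of -0.20 (SE 0.116, 95% interval -0.44 to 0.04; edgeR adjusted p = 0.737). A fall of Sst by more than 0.44 on the log2 scale lies outside that interval. Without scn_cont_565 the value was -0.30 (edgeR adjusted p = 0.147, unadjusted p = 0.00153 by edgeR). It was the only control within the advanced glaucoma range, so leaving it out removed the overlap by construction. In that fit 8.76% of all genes had an unadjusted p under 0.05 by edgeR.

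Tac1 encodes the tachykinins substance P and neurokinin A, which excite neurons and take part in pain and reward. Tac1 (ENSMUSG00000061762, chromosome 6, 7554879 to 7565834, plus strand) was at 177, 183 and 79.8 CPM in the advanced glaucoma libraries, against 158, 144, 149 and 119 CPM in the control libraries. The control libraries sat close together between the advanced glaucoma libraries, of which 2 were the highest and 1 the lowest of all 7. The means were 147 ± 58.0 CPM in advanced glaucoma and 142 ± 16.9 CPM in control (SD, n = 3 and n = 4). The log2 fold change of Tac1 was 0.06 (SE 0.306, 95% interval -0.70 to 0.82; edgeR adjusted p = 0.991). The sign of that value turned without scn_cont_570 (-0.02), without scn_glauc_152 (-0.10) or scn_glauc_153 (-0.13) and with limma-voom weights (-0.04). Without scn_glauc_154 the log2 fold change was 0.35 (edgeR adjusted p = 0.504, unadjusted p = 0.00850 by edgeR). That library held the lowest Tac1 value of all 7, so leaving it out raised the difference by construction. In that fit 6.06% of all genes had an unadjusted p under 0.05 by edgeR. Library scn_glauc_154 was also the lowest of the 7 for the paraventricular, supraoptic and periventricular list, led by Avp and Oxt, at 405 CPM beside 3150 and 4941 CPM in the other advanced glaucoma libraries and 2472 to 9365 CPM in control. The part of these in the Tac1 values was not tested.

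Nts encodes neurotensin, a peptide linked to dopamine signalling, feeding and temperature control. Nts (ENSMUSG00000019890, chromosome 10, 102481756 to 102490486, minus strand) was at 13.0, 19.6 and 9.97 CPM in the advanced glaucoma libraries, against 53.6, 16.8, 23.05 and 68.3 CPM in the control libraries. The control mice fell into a higher and a lower pair, and only scn_cont_567 of the controls reached down into the advanced glaucoma range. Nts averaged 14.2 ± 4.93 CPM in advanced glaucoma and 40.4 ± 24.5 CPM in control (SD, n = 3 and n = 4). The log2 fold change, -1.50 (SE 0.619), was the largest in size of the 5, and its 95% interval was the widest, -3.06 to 0.06 (edgeR adjusted p = 0.637).

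All 18 genes of a list for myelin and oligodendrocytes had a negative log2 fold change, 12 of them at an unadjusted p under 0.05 by edgeR, which 4.15% of all genes tested passed downward. Apod, an apolipoprotein gene of glia, passed after adjustment (log2 fold change -0.48, edgeR adjusted p = 0.0324). The list summed to 3784, 5352 and 2688 CPM in the advanced glaucoma libraries, against 6057, 4730.2, 5421 and 5979.7 CPM in the control libraries, with scn_glauc_154 lowest of the 7. When the fit also held the mean level of these genes, the log2 fold change of Nts was -0.70, that of Gal 0.64, that of Cck -0.61 and that of Tac1 0.48 (edgeR adjusted p = 0.946 to 0.984). That of Sst was -0.35 (edgeR adjusted p = 0.872, unadjusted p = 0.0444 by edgeR). In that fit 5.51% of all genes tested had an unadjusted p under 0.05 by edgeR. The myelin level was itself mostly lower in advanced glaucoma, so its part and that of the group cannot be fully told apart.

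The genes differed in how much libraries varied around the mean of their group, taken over both groups together. The biological coefficient of variation of the fit, which is the spread between libraries beyond counting error after the group means are removed, was 39.7% for Gal, 42.2% for Cck and 51.1% for Nts. These values lay at percentiles 99.1, 99.4 and 99.7 of all genes tested. Tac1, at 27.6%, lay at percentile 88.0, while Sst, at 12.8%, lay at percentile 36.6, within the lower part of the range. Taken by group, the SD of Tac1 was 39.6% of the mean CPM in advanced glaucoma and 11.8% in control. For the other genes it was larger in control: 30.8% and 42.6% for Gal, 24.0% and 56.0% for Cck, 11.7% and 16.4% for Sst, 34.7% and 60.7% for Nts.

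Within a library, the ratio of 2 transcripts does not depend on the scaling. Of the 10 ratios between the 5 precursors, 3 had groups that did not overlap, and all 3 held Gal. Gal stood on top of each of its ratios by the order of the list. These 3 ratios share the same Gal values and so are not separate observations. The share of ratios without overlap over pairs of other genes was not computed. Gal had 25.7, 9.04 and 25.4 counts per count of Nts in the advanced glaucoma libraries, against 2.73, 7.44, 2.69 and 2.92 in the control libraries. Per count of Cck, Gal had 3.74 to 10.4 counts in advanced glaucoma and 1.16 to 3.12 in control. Per count of Sst the range was 0.206 to 0.325 in advanced glaucoma and 0.0476 to 0.168 in control. Per count of Tac1 the groups overlapped, at 0.967 to 3.18 in advanced glaucoma and 0.415 to 1.68 in control. These ratios were singled out after their values were seen and are given without a test.

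**Figure D2:**
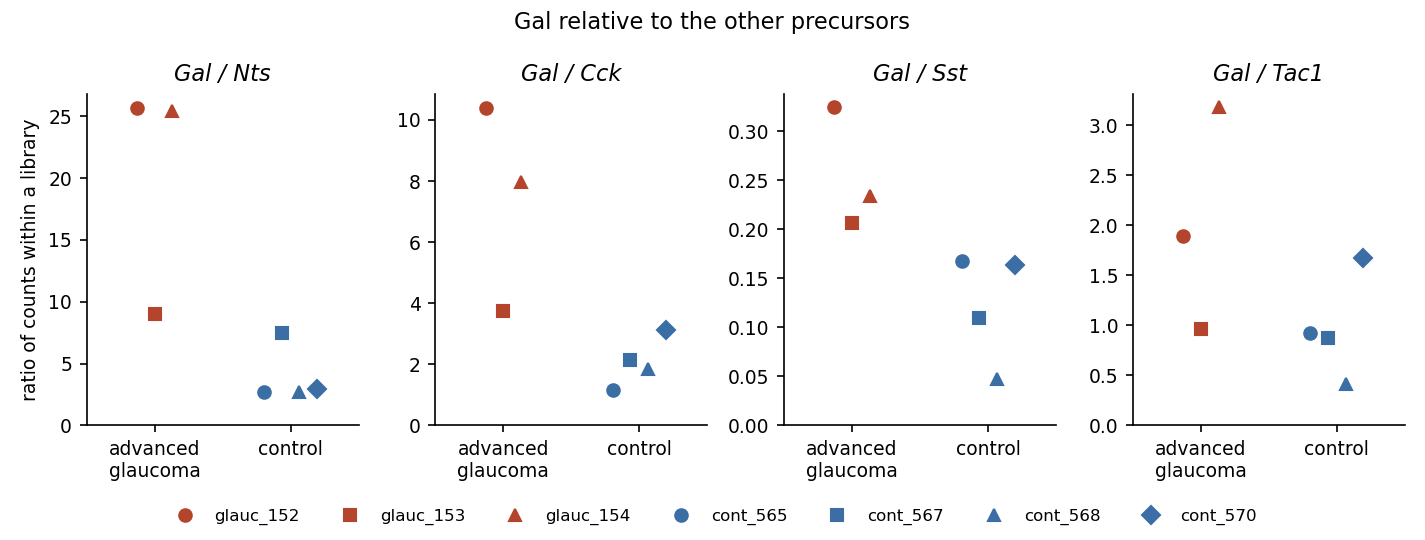
Counts of Gal divided by counts of Nts, Cck, Sst and Tac1 in the same library (vertical axes, from 0), with 1 point per library, advanced glaucoma in red and control in blue. For Nts, Cck and Sst all 3 advanced glaucoma libraries sit above all 4 control libraries, and for Tac1 the groups overlap.

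Vip, the peptide of the light-receiving SCN core, fell, and its 95% interval lies below those of all 5 precursors. Vip had 1.18, 3.02 and 3.88 CPM in the advanced glaucoma libraries, against 152.4, 64.6, 128 and 101 CPM in the control libraries (log2 fold change -5.41, 95% interval -6.58 to -4.25; edgeR adjusted p = 0.00884). The advanced glaucoma values rest on 6, 14 and 14 counts, and the call was lost without scn_glauc_153 (edgeR adjusted p = 0.0643) or scn_glauc_154 (0.0620), as it was when myelin genes entered the fit (0.121) or limma-voom replaced it (0.126), 4 of 14 alternatives. Vip was chosen for comparison with its fall already known. The level of each precursor relative to Vip was taken as a difference of log2(CPM + 2), and its mean difference, advanced glaucoma minus control, was 5.57 for Gal, 4.54 for Tac1, 4.39 for Sst, 3.81 for Cck and 3.35 for Nts. The fall of Vip fixes the direction of all 5 values, so they are given as a description with no test. Of 32 other neuropeptide precursor genes that passed the filter, 6 fell (Vip, Grp, Nms, Prok2, Vgf and Scg2) and 0 rose over all genes tested, again beside a background of 0.378% lower and 0.0927% higher.

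**Figure D3:**
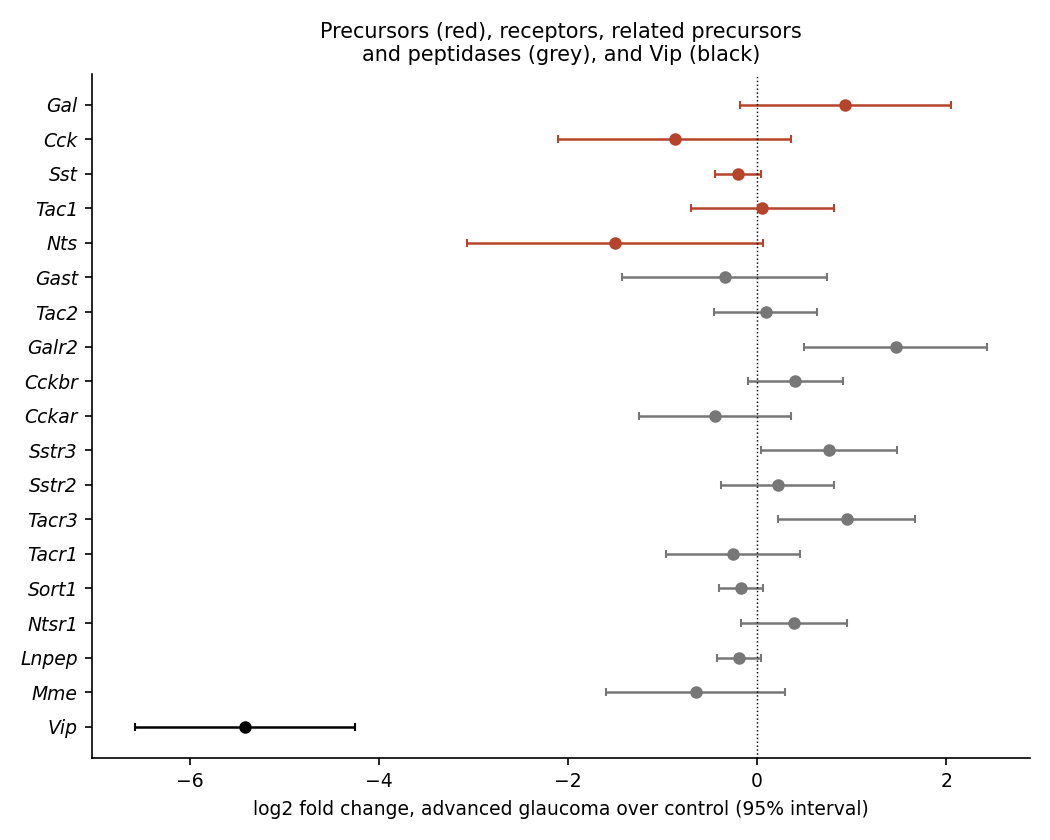
Log2 fold change of advanced glaucoma over control (horizontal axis) with its 95% interval for the 5 precursors (red), 13 genes of their receptors, relatives and peptidases (grey) and Vip (black). The intervals of all 5 precursors include 0 and lie to the right of the interval of Vip, which ends at -4.25.

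Receptors decide which cells respond to these peptides. A list of 33 receptors, related precursors and degrading peptidases was looked up, of which 31 had a count and 23 passed the filter. None of the 23 passed the test in edgeR, against the background of 0.471%, while 3 were higher and 0 lower at an unadjusted p under 0.05, a threshold that 4.05% of all genes passed upward and 4.15% downward. DESeq2 called 0 of them as well. Of the 23, 10 had a negative and 13 a positive log2 fold change, with a median of 0.02 beside -0.01 over all genes.

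The 3 genes past the unadjusted threshold were all receptors. Galr2, a galanin receptor coupled to stimulatory calcium signalling, was at 8.87, 3.66 and 4.15 CPM in the advanced glaucoma libraries, against 2.48, 2.14, 2.73 and 1.08 CPM in the control libraries. These values rest on 15 to 45 counts in advanced glaucoma and 5 to 11 in control, and the groups did not overlap. The log2 fold change of Galr2 was 1.47 (SE 0.469; edgeR adjusted p = 0.249), and without scn_glauc_152 it was 0.93 (edgeR adjusted p = 0.809). Tacr3, the receptor preferred by neurokinin B, was at 6.11, 17.7 and 7.75 CPM in advanced glaucoma and 4.21 to 6.43 CPM in control (log2 fold change 0.95, edgeR adjusted p = 0.385). Its highest value was in scn_glauc_153, which also had the most Pmch, the melanin-concentrating hormone gene of the lateral hypothalamus. Pmch was at 285, 1331 and 202 CPM in the advanced glaucoma libraries and 11.9 to 25.3 CPM in control. The part of lateral hypothalamic tissue in the Tacr3 values was not tested. Without scn_glauc_153 the log2 fold change of Tacr3 was 0.34. Sstr3, a somatostatin receptor of neuronal cilia, was at 6.90, 9.69 and 16.3 CPM in advanced glaucoma and 3.96 to 10.4 CPM in control (log2 fold change 0.76, edgeR adjusted p = 0.568). Its highest value was in scn_glauc_154, without which the log2 fold change of Sstr3 was 0.38, and with the myelin genes in the fit it was 0.21.

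Of the other galanin receptors, Galr1 had 7 to 10 counts in advanced glaucoma libraries and 5 to 13 in control libraries and did not pass the filter, and Galr3 had 1 count in all. Among the CCK receptors, Cckbr, the main brain form, had a log2 fold change of 0.40 (95% interval -0.10 to 0.90) and Cckar one of -0.45 (95% interval -1.25 to 0.36). Sstr2 had a log2 fold change of 0.22, Tacr1, the receptor preferred by substance P, one of -0.26, and Ntsr1, the high-affinity neurotensin receptor, one of 0.39. Sort1, the sorting receptor sortilin that also binds neurotensin, had -0.17 (95% interval -0.40 to 0.07). Sstr4 had 0 counts in every library, which allows up to 3 counts, or 0.540 to 1.49 CPM depending on the library. The spans of Sstr2, Sort1 and the peptidase gene Lnpep overlap those of other genes. Strand and exons were not compared, so whether reads of the other genes enter their counts was not tested.

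Among the related precursors, Tac2, which encodes neurokinin B, had a log2 fold change of 0.09 (95% interval -0.45 to 0.64), and Gast, the gastrin gene, one of -0.34 (95% interval -1.42 to 0.74). Cort, the gene of cortistatin, a relative of somatostatin, had 0 counts in the 3 advanced glaucoma libraries and 0 to 5 in the control libraries. Galp, of the galanin family, had 0 to 6 counts in advanced glaucoma and 0 in control. Of 11 peptidases, 9 passed the filter and none passed the test. Their log2 fold changes ran from -0.65 for Mme, the gene of neprilysin, which degrades tachykinins and other peptides, to 0.20 for Thop1, and that of Lnpep was -0.19. Of 9 G protein alpha subunit genes through which the receptors signal, 8 passed the filter, none passed the test, and their values lay between -0.14 and 0.18.

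The genes whose pattern over the 7 libraries was closest to each precursor were taken from 9855 genes with a mean of at least 10 CPM, by the root mean square difference of log2 CPM after each gene was centred on its own mean. For Nts they included Trh (0.444), the gene of thyrotropin-releasing hormone, and Pde1c (0.468). Trh was at 80.4, 129 and 37.9 CPM in the advanced glaucoma libraries, against 170.3, 97.6, 89.97 and 193 CPM in the control libraries, highest in the same control pair as Nts. For Cck the closest were Bcl11b (0.240), a transcription factor gene of forebrain projection neurons, Pde1c (0.260) and Stxbp5l (0.287). For Gal they were Rbms3 (0.349), Ppp1r17 (0.384) and Axin2 (0.416), and these distances are large beside the own spread of Gal, 0.723. For Tac1 they were Nhs (0.144), Plpp4 (0.148) and Depdc5 (0.150), which shared its low value in scn_glauc_154. Sst varied so little (0.212) that Luc7l2 (0.051), Foxo1 (0.061) and Sox9 (0.061) lay very close to it. A closeness over 7 libraries of 2 groups describes these libraries only.

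**Figure D4:**
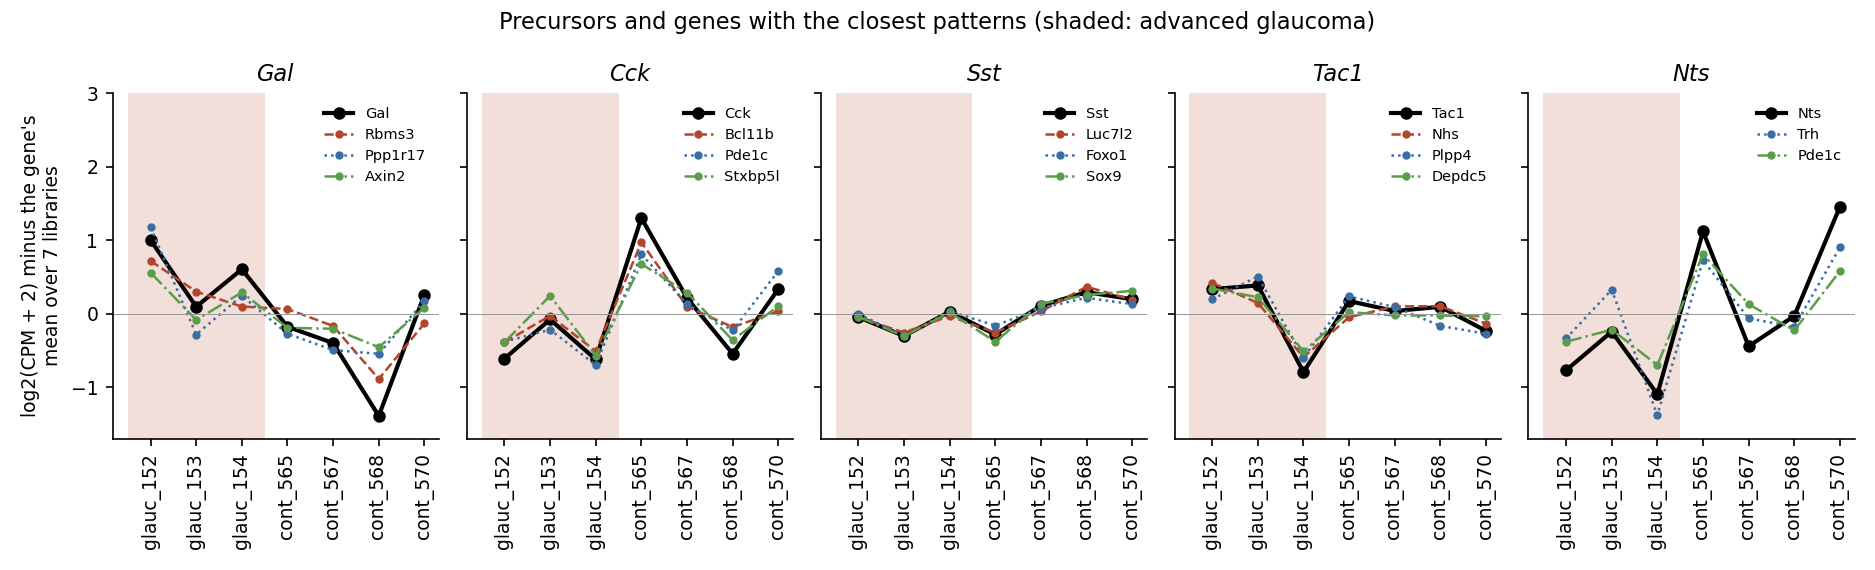
For each precursor (black) and genes with the closest patterns, 3 each and 2 for Nts (coloured), log2(CPM + 2) minus the gene's mean over the 7 libraries (vertical axis), by library (horizontal axis, advanced glaucoma shaded). Nts and Trh share high values in scn_cont_565 and scn_cont_570, and Tac1 and its neighbours share a low value in scn_glauc_154.

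Tissue around the SCN makes the same peptides, so markers of neighbouring regions were summed in each library with the 5 precursors left out. The lateral hypothalamus list (Pmch, Hcrt and Lhx9) summed to 206 to 1395 CPM in advanced glaucoma and 17.3 to 42.2 CPM in control, without overlap. Most of that sum was Pmch, at 285, 1331 and 202 CPM in the advanced glaucoma libraries, against 11.9 to 25.3 CPM in the control libraries (edgeR adjusted p = 0.184). Hcrt, the orexin precursor gene, was at 6.50, 59.7 and 1.66 CPM in advanced glaucoma and 3.47 to 15.9 CPM in control (edgeR adjusted p = 0.893), and the groups overlapped in Lhx9 too. The genes with the highest levels were Cartpt and Npy in the arcuate list, Pde10a in the striatum list, Nrgn and Slc17a7 in the cortex list, Tcf7l2 and Ntng1 in the thalamus list, and Six3 and Zfhx3 in the SCN list. Beyond the arcuate and paraventricular lists given above, the preoptic list ran from 154.3 to 171 CPM in advanced glaucoma and from 147 to 155 CPM in control. The striatum and septum list, in which Tac1 neurons are common, ran from 133 to 150 CPM in advanced glaucoma and from 126 to 184 CPM in control. The cortex and hippocampus list ran from 299.9 to 621 CPM in advanced glaucoma and from 207 to 389 CPM in control, and the thalamus list from 71.7 to 98.2 CPM in advanced glaucoma and from 64.5 to 77.3 CPM in control. Exact permutation p-values (two-sided, n = 3 and n = 4) were 0.0286 for the SCN and lateral hypothalamus lists, the smallest possible, and no sum of the 16 region and cell type lists passed after adjustment over them (lowest adjusted p = 0.183, exact permutation). At this size an adjusted p under 0.05 would need most of the 16 lists at the smallest p, so that outcome says little about any list. The lists were chosen with earlier results of these data known. Of the 12 SCN genes, 10 were called lower by edgeR, beside 0.378% of all genes tested. The p-value of the SCN list is therefore no independent test. No marker gene of these 7 neighbouring regions apart from Kiss1 was at 0 in every library. The part of neighbouring tissue in the values of the 5 precursors was not tested.

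**Figure D5:**
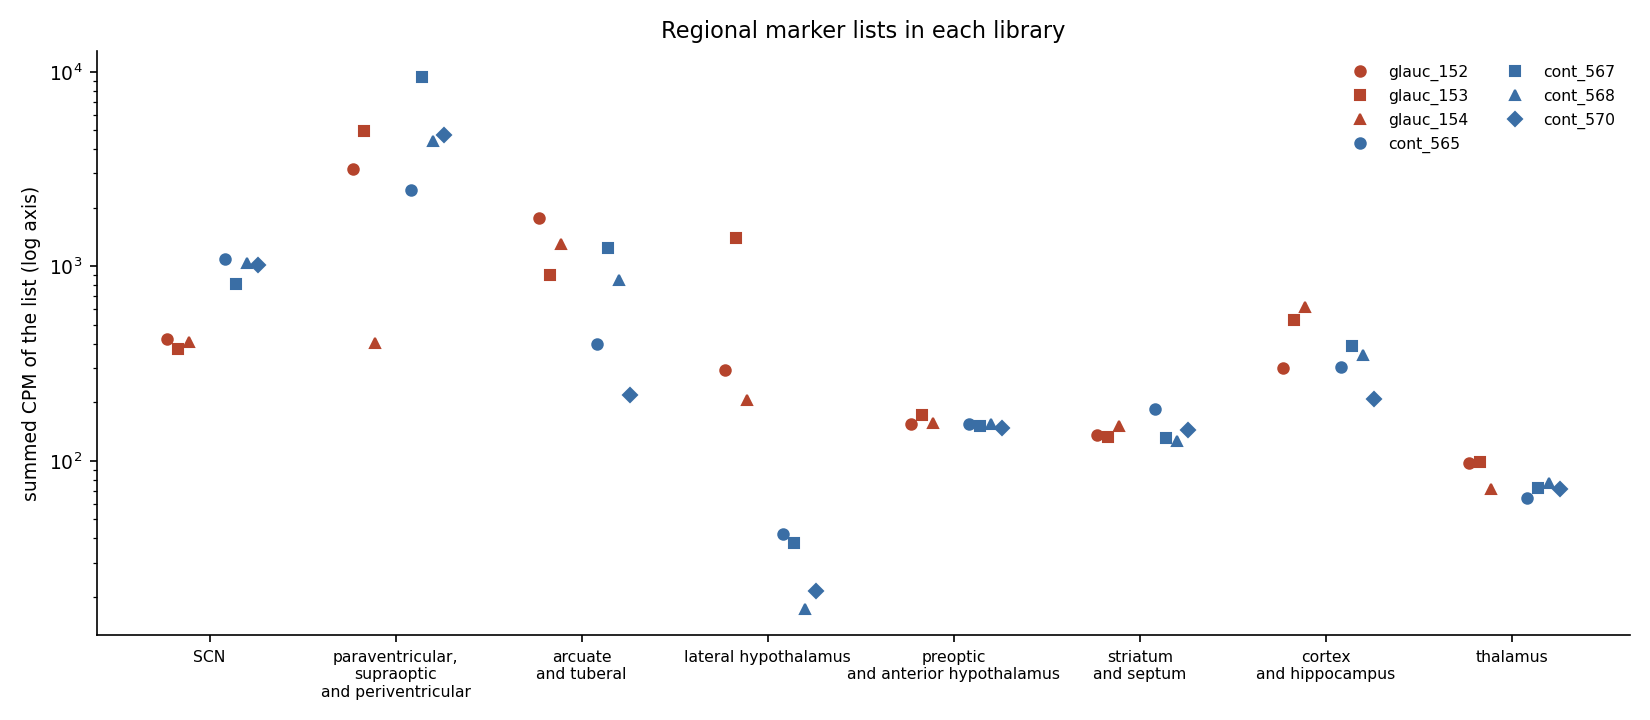
Summed CPM of marker lists for the SCN and 7 neighbouring regions (vertical log axis) in each advanced glaucoma (red) and control (blue) library, with the 5 precursors left out of every sum. The SCN sums are lower (376 to 423 CPM, against 807 to 1086) and the lateral hypothalamus sums higher (206 to 1395 CPM, against 17.3 to 42.2) in advanced glaucoma, and the striatum and septum sums overlap.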

How the data were processed

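RNA was counted by BRB-seq, which reads the 3′ ends of transcripts, with the MERCURIUS kit, per the labels' protocols. The deposited values are raw counts of 7 libraries, whole numbers for each gene. STAR, HTSeq, featureCounts, DESeq2 and mm10 are named in the submitters' processing notes, and their roles, the strand setting and the handling of molecular identifiers are not given in the sources used here. The upper limit given for a count of 0 covers counting error only, and the 95% intervals come from the edgeR fit and include the spread between libraries. Symbols came from a gene name table (55141 of 55487 identifiers; the rest held 0.0291% of counts) and positions from GENCODE M21 on GRCm38, the assembly of mm10. No GENCODE gene overlaps any of the 5 precursor genes.

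Counts were tested in R 4.3.3 with edgeR 4.0.16: filterByExpr by group, TMM factors, robust quasi-likelihood fit with the group as the only term, and Benjamini-Hochberg adjustment over 14020 genes at 0.05. SE is the absolute log2 fold change divided by the square root of F. Log2 CPM used a prior count of 2. DESeq2 1.42.0 and limma 3.58.1 served as alternatives, and the fit was tested on simulated data. Exact permutation tests of summed marker levels ran over the 35 ways to divide 7 libraries into 3 and 4. Libraries were taken as separate mice from the design text, so p-values measure the spread between these libraries.

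The members and lists were chosen with earlier results of these data known. Named besides the 5 genes were the list genes past the threshold, or up to 2 per list with the smallest p, the 3 closest patterns per precursor, and up to 2 genes of each regional list with the highest level. Galr1, Galr3, Sstr4, Cort, Galp, Thop1, Lhx9, Kiss1, Apod and Grp, Nms, Prok2, Vgf and Scg2 fell outside that rule and were named after their values were seen. Some genes picked by this rule are left out of the text.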

Additional observations from a re-analysis of the deposited data

How the results depend on the processing

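None of Gal, Cck, Sst, Tac1 and Nts passed under any of 14 alternatives (RLE factors, plain library size, no filter, a mean of at least 10 CPM, DESeq2, limma-voom weights, the myelin list as a covariate, and each library left out), and 66 of 70 values kept their direction. The other 4 belong to Tac1, near 0 in the main test: -0.038 with limma-voom weights, and -0.13 to 0.35 over the fits with a library left out; its highest value was 0.48, with the myelin covariate. That covariate also gave 0.64 for Gal, -0.61 for Cck, -0.35 for Sst and -0.70 for Nts. With a library left out, log2 fold changes ran from 0.69 to 1.22 for Gal, -1.11 to -0.48 for Cck, -0.30 to -0.10 for Sst and -1.80 to -1.05 for Nts. The list of receptors, relatives and peptidases gave 0 calls under each alternative, in 4 of which more of its genes were tested (no filter, and each advanced glaucoma library left out). Of single genes, Gast ran from -1.26 to 0.0055 with a library left out (positive without scn_glauc_153), Tac2 from -0.092 to 0.30 (negative without scn_cont_570 or scn_glauc_152), and Sort1 turned to 0.013 with the myelin covariate. The count of changed genes was 202 with no filter, where more genes were tested, 16 with the myelin covariate, and 28 to 93 with a library left out (28 without scn_glauc_154, 33 without scn_cont_570); the cause was not tested. No paired analysis was possible because the groups share no replicate numbers. At 3 against 4 libraries, the 95% intervals of Gal, Cck and Nts hold both 0 and a change by 1 on the log2 scale. These intervals therefore exclude neither an unchanged level nor a change of that size.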

Other observations

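Many neurons that make somatostatin or galanin in the hypothalamus also use GABA. All 9 genes of a GABA neuron list had a negative log2 fold change and 1 of the 9 passed over all genes tested (edgeR). Gad2, which makes GABA, averaged 276 ± 85.7 CPM in advanced glaucoma and 468 ± 73.5 CPM in control (SD, n = 3 and n = 4; edgeR adjusted p = 0.446), and Slc32a1, the vesicular GABA transporter, 92.7 ± 30.7 CPM in advanced glaucoma and 168 ± 29.8 CPM in control (edgeR adjusted p = 0.427). In the same libraries the log2 fold change of Sst was -0.20. Slc17a6, the glutamate transporter of hypothalamic excitatory neurons, had a log2 fold change of 0.60 (edgeR adjusted p = 0.524). Gad2 and Slc32a1 were chosen after their values were seen.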
